A study of Mus musculus with 6 samples.

Results

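Hand1, Plac1, Plac8, Gcm1, Cited2, Rhox6, Taf7l and Syna are 8 genes grouped here under early trophoblast differentiation. The trophoblast is the lineage that attaches the embryo and builds the placenta. The grouping does not mean that each gene was strongly expressed in the samples used here. The features of these genes on the array were taken by gene symbol, Entrez identifier or accession in the platform annotation, with every feature used. This gave 9 features of 7 genes, out of 33026 named features of 22485 genes. No feature was matched to Gcm1, which is not analysed here. The 8 genes were put together with their differences between mimic and scramble already known, so those differences are described below without a test.

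The samples were whole B6C3F1 mouse blastocysts on day 5, from hormone-primed females of 6 to 8 weeks of age. Embryos flushed on day 2 of pregnancy were cultured for 72 hours with 400 nM of a synthetic RNA, with 30 embryos per condition. In the scramble group (n = 3) the RNA was a scrambled oligonucleotide tagged with Alexa 488, and in the mimic group (n = 3) it copied miR-30d, which the endometrium can release. A dye is named for the scramble RNA only. Untreated embryos were not used here, so an effect common to both RNAs cannot be seen. The question is what miR-30d in the medium does to the embryo's RNA. From 50 ng of total RNA per sample, Cy3-labelled copies were hybridised to 1 array each. Whole embryos were pooled, so more cells that express a gene and more RNA per cell cannot be told apart. Values are log2 signal, in which a step of 1 is a doubling, and they can be compared between arrays for 1 feature but not between features.

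In the mouse the trophectoderm, the outer layer of the blastocyst, gives rise to trophoblast stem cells and to giant cells, which lie at the border with the uterus. Hand1 is a basic helix-loop-helix transcription factor that is required for giant cell formation. Gcm1 and Syna belong to the labyrinth, where syncytin A, the protein of Syna, fuses trophoblast cells into a syncytium. Plac1, Rhox6 and Taf7l are X-linked, and Plac8 and Cited2 are autosomal genes with known placental expression.

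The labelled tissue was borne out by its markers. Over the 6 arrays the trophectoderm keratin Krt8 read 14.48 to 15.12 and the trophectoderm factor Cdx2 read 12.14 to 13.73. The pluripotency factor Nanog of the inner cell mass read 10.07 to 10.77 and the primitive endoderm factor Gata6 11.04 to 11.36. Between the groups, all 5 trophectoderm markers had a lower mean with the mimic (median log2 difference -0.09), as had 8145 of 17399 genes tested. The differences of Krt18 (-0.05, SE 0.26), Krt7 (-0.04, SE 0.21) and Gata3 (-0.09, SE 0.13) were smaller than their SEs. Cdx2 had -0.62 (SE 0.28). Krt8 was lower on every mimic array (-0.27, SE 0.21), as 4.12% of the genes tested were. Of 4 inner cell mass markers 3 were higher (median 0.30), as were 3 of 4 primitive endoderm markers (median 0.19). None of these markers passed the adjusted threshold in limma, and their part in the results below was not tested. Markers of cumulus cells (5 genes), sperm (4), stroma (4) and oviduct (4) read between 6.56 and 8.14. Features without a gene name had a median of 7.20, against 7.45 for named features. Bright features were among the unnamed ones, so their median is not a measured background level. Among 5 blood and 5 endothelial markers, Itgam (9.82 to 12.58) and Kdr (9.34 to 11.49) were exceptions on all 6 arrays. Both were brightest on scramble replicate 1. The arrays of replicate 1 stood apart in both groups: they held 2108 and 2683 distinct values among 45220 features, against 4410 to 5979 on the other arrays. Results are therefore also given without them.

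Hand1 had the largest difference of the 7 genes, and its mimic mean lay 2.09-fold above its scramble mean. It read 7.07, 7.84 and 7.16 with scramble and 8.33, 9.14 and 7.80 with the mimic, for replicates 1, 2 and 3. The groups overlapped slightly, because scramble replicate 2 (7.84) lay above mimic replicate 3 (7.80). The means were 7.35 ± 0.42 (SD, n = 3) and 8.42 ± 0.68 (SD, n = 3), and the log2 difference was 1.07 (SE 0.41). The scramble values were close to the dim end of the array, where a log2 difference can understate the true one. Of 17399 genes tested, 63 (0.362%) had a larger log2 difference, and 73 (0.42%) had one of at least 1. Without mimic replicate 2, the brightest array for this gene, the log2 difference was 0.71, and without both replicate 1 arrays it was 0.97.

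Cited2 encodes a coactivator that binds CBP and p300, limits HIF1A and works with AP-2 factors, and mouse embryos without it have small placentas. Its brighter feature read 11.25, 11.17 and 11.19 with scramble and 11.58, 11.69 and 11.10 with the mimic. Mimic replicates 1 and 2 lay above all scramble arrays and mimic replicate 3 lay below them, and the log2 difference was 0.26 (SE 0.16). Its other feature read 8.88 to 9.37 with scramble and 9.13 to 9.59 with the mimic, with a log2 difference of 0.16. The 3 scramble values of the brighter feature had an SD of 0.042, against a median SD of 0.278 over all genes tested. The log2 difference went from 0.14 without mimic replicate 2 to 0.43 without mimic replicate 3.

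Rhox6 is a homeobox gene of the reproductive homeobox cluster on the X chromosome and is expressed in placenta and germ cells. It read 9.55, 9.77 and 9.23 with scramble and 9.29, 9.40 and 9.07 with the mimic. The groups overlapped, and the mimic array was the lower of the pair at each replicate number. The log2 difference was -0.26 (SE 0.20). It was -0.14 without scramble replicate 2, -0.17 without mimic replicate 3 and -0.40 without scramble replicate 3. Rhox6 and its neighbour Rhox9 are close paralogues, so a signal shared between their features cannot be told apart here.

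Plac1 encodes a secreted or membrane-associated trophoblast protein related to zona pellucida proteins, and mice that lack it have enlarged, disordered placentas. It read 10.84, 11.16 and 11.41 with scramble and 11.49, 11.87 and 11.81 with the mimic. It was the 1 gene of the 7 whose groups did not overlap, with every mimic array above every scramble array, a pattern that 5.58% of all genes tested had. The means were 11.14 ± 0.28 (SD, n = 3) and 11.73 ± 0.20 (SD, n = 3), and the log2 difference was 0.59 (SE 0.17). It was 0.56 without both replicate 1 arrays, and leaving out single arrays gave 0.44 to 0.72. Of the genes tested, 555 (3.19%) had a larger difference.

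**Figure D1:**
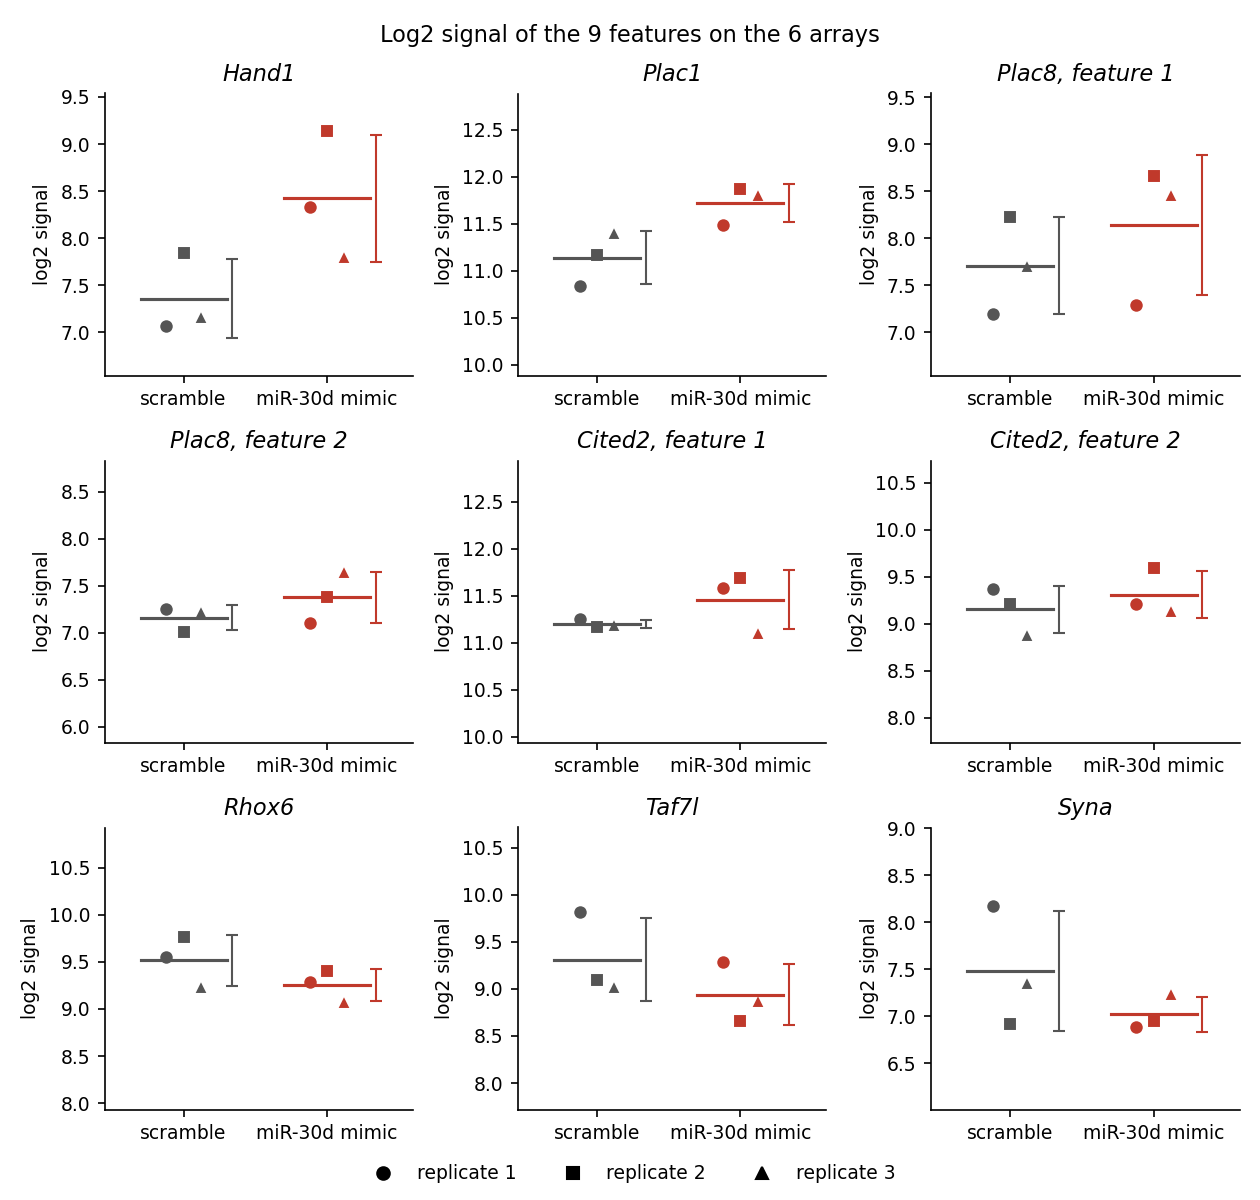
Log2 signal (vertical axis, each panel spanning 3 log2 units) of the 9 features in the scramble (grey) and mimic (red) groups. Symbols are the 3 replicates, horizontal lines are means and bars at the side are SDs; the groups are apart for Plac1 alone.

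Plac1 has 2 annotated starts on the minus strand of the X chromosome, 125705 bases apart in GRCm38.p6. The annotation used does not say which of their transcripts the single Plac1 feature reads. The 250 bases before each start are shown, because Plac1 was the gene whose groups did not overlap and E-boxes are the class of letters that basic helix-loop-helix factors such as Hand1 bind. The sequences are from RefSeq, 5′ to 3′ on the gene's strand, and capitals mark E-box letters (CANNTG, searched on both strands).
Plac1, distal start, chrX:53240111-53240360: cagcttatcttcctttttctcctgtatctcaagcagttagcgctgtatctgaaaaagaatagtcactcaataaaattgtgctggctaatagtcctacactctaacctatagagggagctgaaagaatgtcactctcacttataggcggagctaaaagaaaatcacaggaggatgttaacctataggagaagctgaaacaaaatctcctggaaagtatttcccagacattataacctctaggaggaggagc
Plac1, proximal start, chrX:53114406-53114655: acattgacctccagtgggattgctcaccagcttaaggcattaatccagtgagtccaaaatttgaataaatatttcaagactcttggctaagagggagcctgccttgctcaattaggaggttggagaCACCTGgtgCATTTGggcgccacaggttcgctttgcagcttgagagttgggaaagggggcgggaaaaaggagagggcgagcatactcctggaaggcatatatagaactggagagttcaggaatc

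The distal window held 0 E-box matches and the proximal window 2, which begin 124 and 115 bases before the start. Among the 32851 promoters of the RefSeq table, 66.2% held at least 1 match in the same window and 31.8% at least 2. The AP-2 letters GCCNNNGGC were in neither Plac1 window and in 13.7% of all windows. Among the other genes with a window in the table, Taf7l and Gcm1 held 2 E-box matches each, Cited2 held 1 and Syna held 0. The Plac8 windows held 0 and 2. Syna had the AP-2 letters, at 202 bases before its start. Hand1 and Rhox6 had no entry in the table.

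Plac8 encodes a small cysteine-rich protein known from placenta and blood cells. Its brighter feature read 7.20, 8.23 and 7.70 with scramble and 7.29, 8.67 and 8.47 with the mimic. Replicate 1 was the lowest array of both groups and the groups overlapped. The log2 difference was 0.43 (SE 0.44), and its means were 7.71 ± 0.51 and 8.14 ± 0.74 (SD, n = 3 each). The dimmer feature read 7.01 to 7.26 with scramble and 7.11 to 7.65 with the mimic, a log2 difference of 0.22. For the brighter feature the log2 difference was 0.17 without mimic replicate 2, 0.18 without scramble replicate 1, 0.27 without mimic replicate 3, 0.69 without scramble replicate 2, 0.86 without mimic replicate 1 and 0.60 without both replicate 1 arrays. Of 5 blood markers, Ptprc, Ly6g, Hba-a1 and Hbb-b1 read 6.72 to 7.65. Itgam read 12.58, 9.98 and 10.47 with scramble and 11.81, 9.82 and 10.05 with the mimic, and unlike Plac8 it was brightest on replicate 1. Its part in the Plac8 values was not tested.

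Syna read 8.18, 6.92 and 7.35 with scramble and 6.89, 6.95 and 7.23 with the mimic. Scramble replicate 1 was the brightest array, and the other 5 arrays lay between 6.89 and 7.35, close to the median of the unnamed features. The log2 difference of -0.46 (SE 0.31) rested on that array: it was -0.11 without it and -0.05 without both replicate 1 arrays. It was -0.74 without scramble replicate 2. Synb, the other mouse syncytin gene, was left out as dim, with values from 6.92 to 7.20. Ly6e, the receptor of syncytin A in the mouse, read 10.23 to 10.84 with scramble and 10.76 to 10.83 with the mimic.

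Taf7l, an X-linked relative of the general transcription factor gene Taf7, is known from sperm formation and fat cells. It read 9.82, 9.09 and 9.02 with scramble and 9.29, 8.66 and 8.87 with the mimic. Replicate 1 was the brightest array of both groups, and the mimic array was the lower of the pair at each number. The log2 difference was -0.37 (SE 0.28), and it was -0.12 without scramble replicate 1, -0.23 without mimic replicate 2 and -0.29 without both replicate 1 arrays. The sperm markers Prm2, Tnp1 and Tnp2 read at most 7.60.

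Of the 7 genes, 4 were higher and 3 lower with the mimic, and their median log2 difference was 0.26, against 0.02 over the 17399 genes tested. All 9 features passed the filter on dim features, whose limit was a mean of 7.16. Syna passed through 1 array, since the mean of its other 5 arrays was 7.07. In limma, 0 genes passed at an adjusted p of 0.05 (0% of those tested, with 552 or 3.17% at an unadjusted p under 0.05), so 0 of the 7 did. The median of the 7 was 0.14 without mimic replicate 2. Since the genes were chosen on this contrast, nothing is read from these counts.

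**Figure D2:**
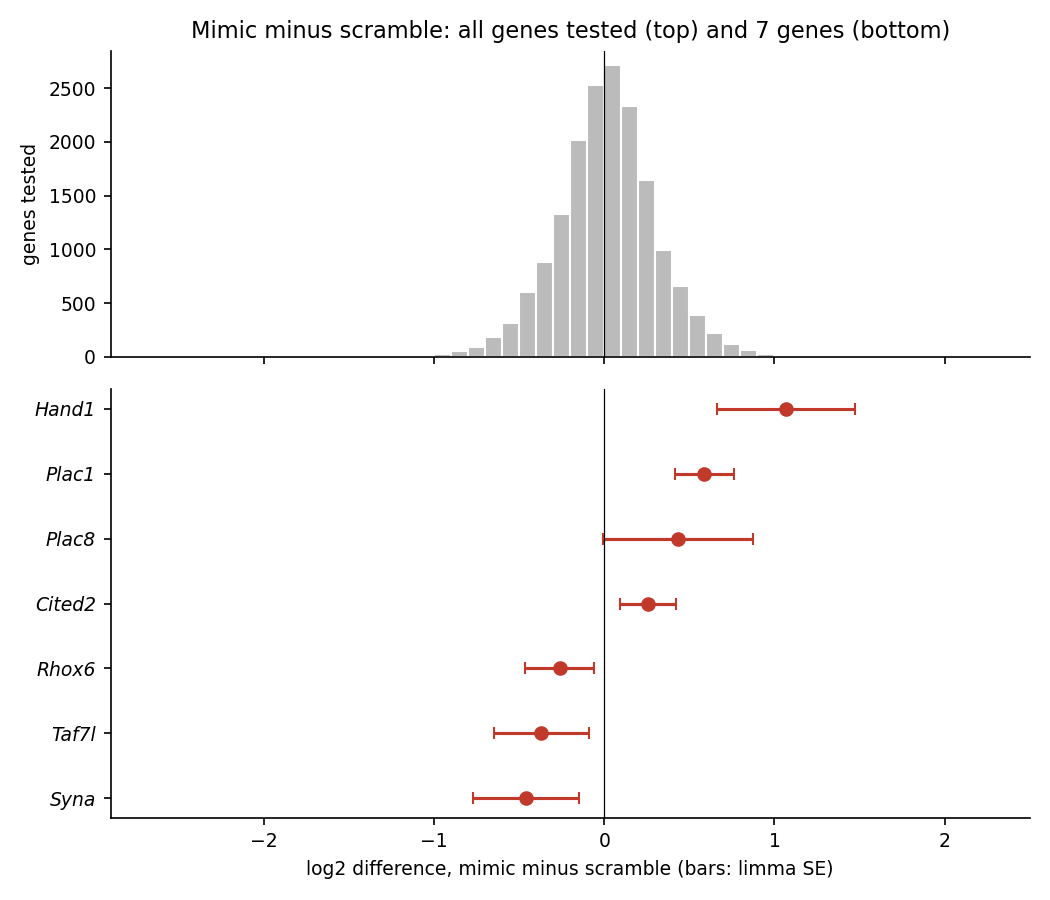
Log2 difference, mimic minus scramble. The upper panel counts the 17399 genes tested in steps of 0.1, and the lower panel shows the 7 genes with limma standard errors, from Hand1 at 1.07 to Syna at -0.46.

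The replicate numbers of the titles allow a second description, pair by pair. Hand1 was higher in the mimic array by 1.26, 1.30 and 0.64 at numbers 1, 2 and 3. Plac1 was higher by 0.65, 0.71 and 0.41, and Plac8 by 0.09, 0.44 and 0.76. On the brightest feature of each gene, these 3 genes were higher in every pair, as were 19.1% of all genes tested. Rhox6 and Taf7l were lower in every pair, as were 13.8%. The dimmer feature of Plac8 differed by -0.15, 0.37 and 0.43, so it was not higher in every pair. The brighter feature of Cited2 was higher at numbers 1 and 2 and differed by -0.08 at number 3. Its other feature differed by -0.16, 0.39 and 0.25. Syna differed by -1.29 at number 1 and by 0.03 and -0.12 at the others. With the replicate number as a block in the fit, the SE of Plac1 went from 0.17 to 0.098 and that of Hand1 from 0.41 to 0.26, and 0 of the 7 genes passed the adjusted threshold.

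**Figure D3:**
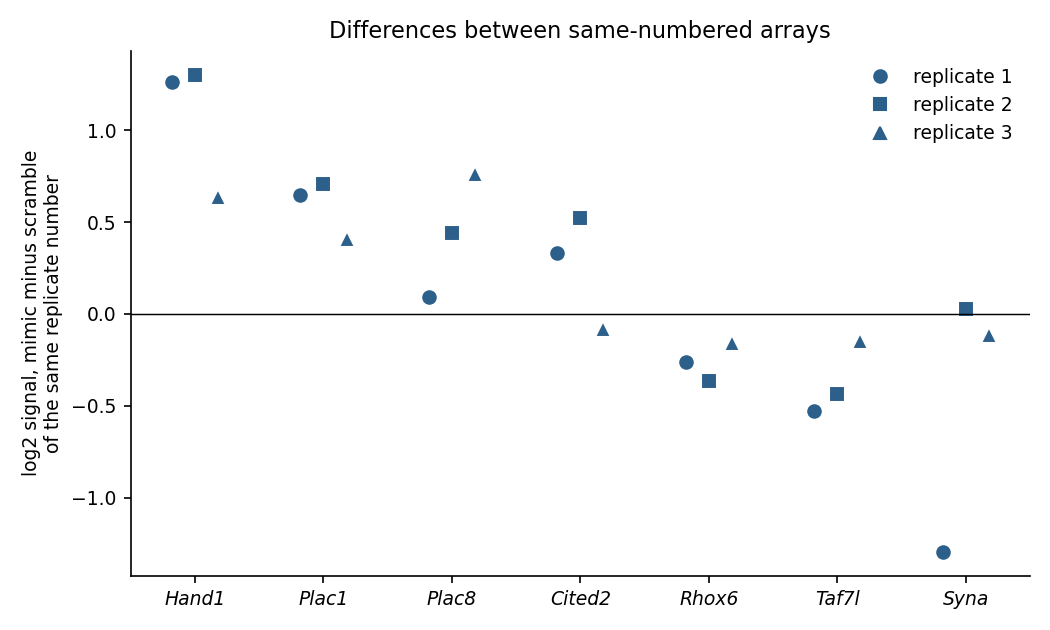
Log2 signal of the mimic array minus that of the scramble array with the same replicate number, for the brightest feature of each of the 7 genes. Hand1, Plac1 and Plac8 lie above 0 at all 3 numbers, Rhox6 and Taf7l lie below it, and the Syna difference is mostly that of replicate 1.

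The 7 genes did not share a profile over the arrays. Likeness was measured as the root-mean-square gap between 2 profiles, each centred on its own mean, in log2 units, among the genes tested whose SD over the arrays was at least 0.25. Hand1 and Plac1 were 0.52 apart, and 495 of 10562 genes were nearer to Hand1 than Plac1 was. Seen from Plac1, 5903 of 10562 genes were nearer to it than Hand1 was. Taf7l and Syna were 0.30 apart, the smallest gap between any pair of the 7, and both were brightest on scramble replicate 1. The 3 genes nearest to Hand1 were Efs, an adaptor of Src family kinases (gap 0.19), the myosin light chain gene Myl4 (0.28) and the laminin-binding integrin gene Itga7 (0.29). Efs read 9.48, 10.15 and 9.42 with scramble and 10.50, 11.02 and 10.24 with the mimic. Its groups did not overlap, with the mimic higher, as in 5.58% of all genes tested. The 3 genes nearest to Plac1 were Krcc1 (0.083), the matricellular gene Ccn1 (0.087) and the tissue factor gene F3 (0.089). Their log2 differences were 0.60, 0.44 and 0.62. These likenesses include the difference between mimic and scramble that chose the genes, and they describe these 6 arrays.

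**Figure D4:**
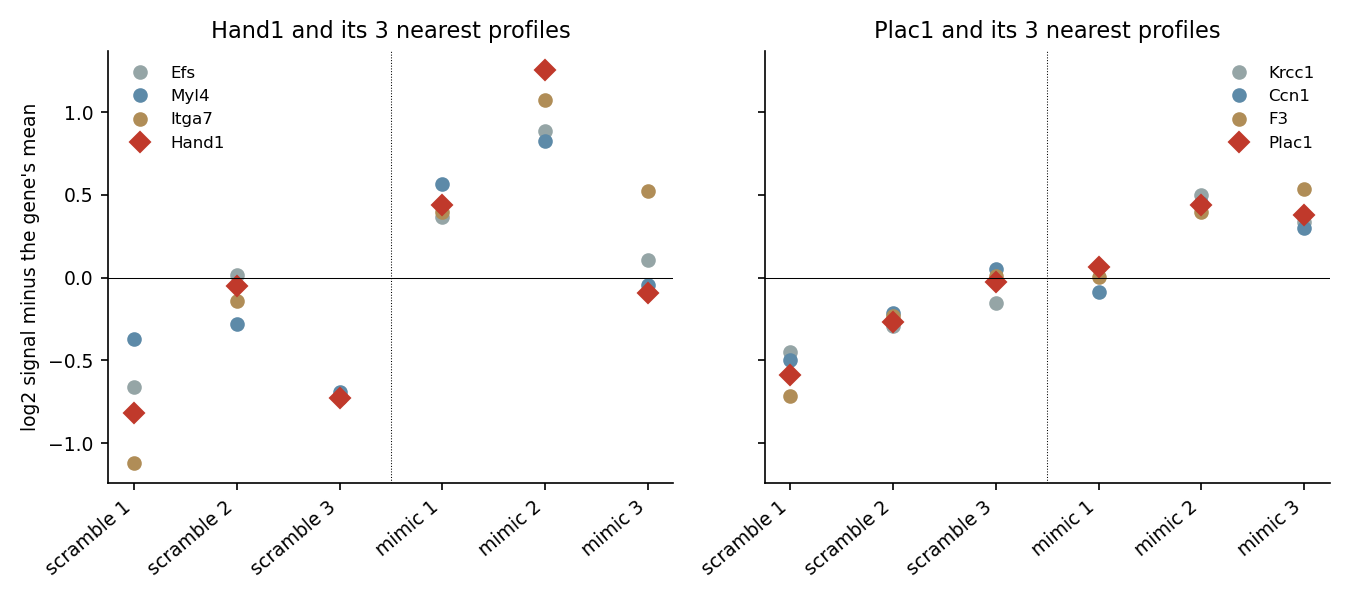
Log2 signal on each of the 6 arrays minus the gene's own mean, for Hand1 (left) and Plac1 (right, red diamonds) and the 3 genes with the nearest profiles (circles). Plac1 and its neighbours lie within about the same narrow band on every array, while the neighbours of Hand1 spread more widely.

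Listed partners and regulators of Hand1 read lower with the mimic more often than higher. This was not so without the replicate 1 arrays. In a list of 14 partners and regulators, 13 were tested, 4 were higher and 9 lower, 0 passed, and the median log2 difference was -0.18 (0.01 without both replicate 1 arrays). Plk4, a kinase that phosphorylates Hand1 and frees it from the nucleolus, read 8.31, 7.64 and 8.29 with scramble and 7.08, 7.68 and 7.76 with the mimic. Its log2 difference was -0.57 (SE 0.33), and -0.25 without both replicate 1 arrays. Mdfi, an inhibitor of basic helix-loop-helix factors, had -0.52 (SE 0.34), and -0.11 without both replicate 1 arrays. Id2, an inhibitor of the same class, read 12.22 to 12.57 over all 6 arrays. Of the Id genes, Id1 (log2 difference 0.09, SE 0.30), Id2 (0.06, SE 0.13) and Id4 (0.25, SE 0.19) were higher and Id3 (-0.57, SE 0.39) was lower. Id4 read 7.13 to 7.28 with scramble and 7.40 to 7.53 with the mimic, near the dim end. Its groups were thus apart with the mimic higher, as in 5.58% of the genes tested. Tcf12, which encodes an E-protein partner, read 13.41 on scramble replicate 1 and at most 8.13 elsewhere on its brighter feature.

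Giant cell genes were mixed. Of 17 listed, 11 were tested, 6 were higher and 5 lower, 0 passed, and the median was 0.08. The placental lactogen gene Prl3d2 (log2 difference 2.06, SE 0.34) and the placental cathepsin gene Ctsll3 (1.97, SE 0.31) were higher in every mimic array than in any scramble array. Of the genes tested, 5.58% had this pattern. With the replicate number as a block in limma, a pairing that the labels do not give, Ctsll3 had an adjusted p of 0.0138. In the main limma fit, which has no block, the smallest adjusted p of any gene was 0.97. Cts7, another cathepsin of the cluster that holds Ctsll3, differed the other way by -0.84 (SE 0.28). It read 8.12, 7.12 and 7.94 with scramble and 6.77, 7.09 and 6.82 with the mimic. It was thus lower on every mimic array, as 4.12% of the genes tested were, but its mimic values were near the dim end. Among 10 genes of the spongiotrophoblast, the layer between giant cells and labyrinth, 4 were tested, 3 were higher and 1 lower, and 0 passed. Its defining marker Tpbpa was dim on every array (6.83 to 7.28). Phlda2, an imprinted gene that limits placental growth, read 9.72, 9.35 and 9.48 with scramble and 10.55, 9.57 and 10.30 with the mimic, and the groups overlapped. Its log2 difference was 0.62 (SE 0.25), and Egfr had 0.62 (SE 0.40). The Egfr difference was 0.21 without scramble replicate 3 and 1.01 without scramble replicate 1. The median of the 4 was 0.35, and 0.09 without scramble replicate 3.

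Of 17 genes of the syncytiotrophoblast and labyrinth, 15 were tested, 10 were higher and 5 lower, 0 passed, and the median was 0.08. It was 0.20 without scramble replicate 1, 0.22 without mimic replicate 1 and 0.15 without mimic replicate 3. The transcription factor gene Cebpb read 9.79, 10.23 and 10.46 with scramble and 10.80, 10.62 and 10.68 with the mimic. Its log2 difference was 0.54 (SE 0.18), and 0.31 without both replicate 1 arrays. The lactate transporter gene Slc16a3 read 8.12, 8.32 and 7.69 and then 8.74, 9.07 and 8.61, a log2 difference of 0.76 (SE 0.29). The groups of both genes were apart, with every mimic array above every scramble array, as in 5.58% of the genes tested. So were those of Pparg, a regulator of labyrinth formation (0.50, SE 0.28). Pparg read 7.18 to 7.49 with scramble, near the dim end, and 7.57 to 8.29 with the mimic.

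All 12 genes of the trophoblast stem cell list were tested, 5 were higher and 7 lower, 0 passed, and the median was -0.05. Tfap2c, an AP-2 factor of the trophectoderm, read 11.79, 11.87 and 12.07 with scramble and 11.97, 12.59 and 12.47 with the mimic (log2 difference 0.43, SE 0.18). Elf5 had 0.53 (SE 0.24) and Cdx2 had -0.62 (SE 0.28). The groups overlapped for all 3 genes, and the Elf5 difference was 0.33 without scramble replicate 1. Of 11 paralogues and partners of Cited2, 6 were higher and 5 lower, 0 passed, and the median was 0.07. Cited1, a close paralogue that is also required for a normal mouse placenta, read 9.80, 9.21 and 8.84 with scramble and 8.72, 8.65 and 8.49 with the mimic, so that it was lower on every mimic array, as 4.12% of the genes tested were. Its log2 difference was -0.67 (SE 0.28), and it was -0.41 without scramble replicate 1. The AP-2 gene Tfap2a had 0.26 (SE 0.14), and 0.16 without scramble replicate 1, 0.11 without both replicate 1 arrays and 0.10 as the mean of its 2 features.

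**Figure D5:**
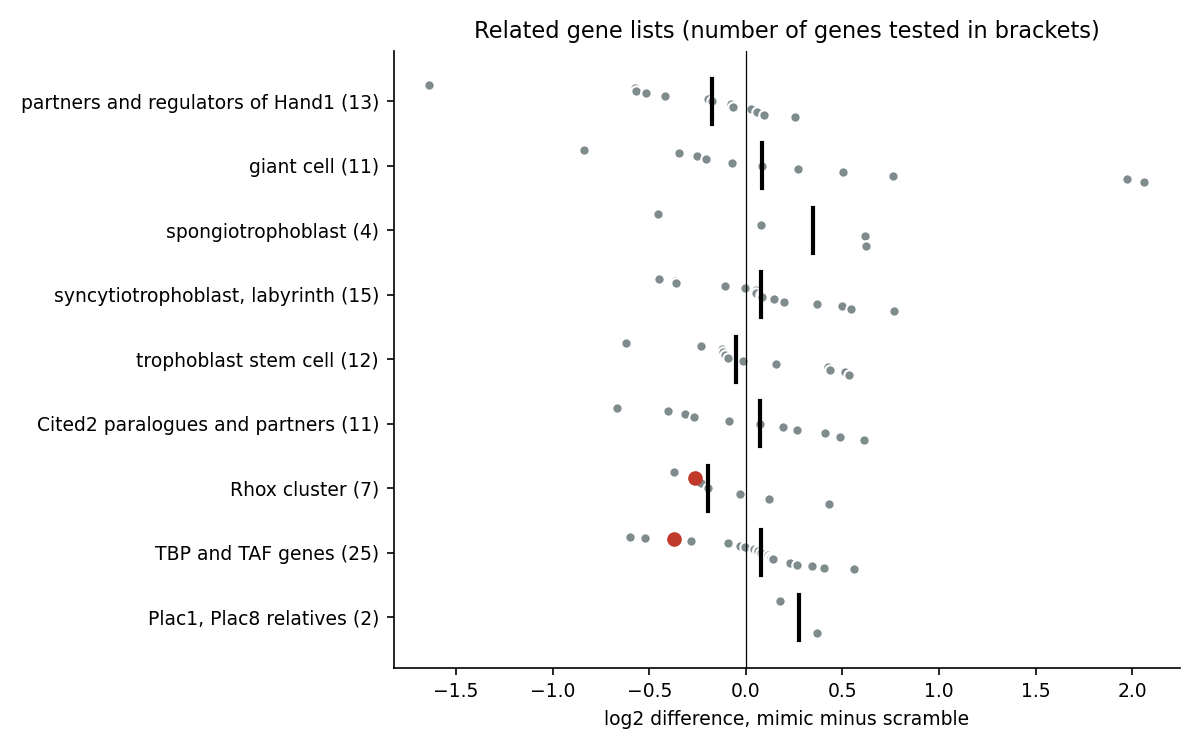
Log2 difference, mimic minus scramble, of each tested gene (points) in 9 lists of related genes, with list medians as black bars and Rhox6 and Taf7l in red. The medians lie between -0.19 and 0.35. Of the lists, 8 have genes on both sides of 0, and the 2 tested relatives of Plac1 and Plac8 lie above it.

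Among 10 genes of the Rhox cluster on the array, 7 were tested, 2 were higher and 5 lower, and 0 passed. The median was -0.19 with Rhox6 and -0.11 without it. Rhox5, which is strongly expressed in placenta, read 11.999, 13.74 and 13.30 with scramble and 13.10, 13.76 and 13.48 with the mimic, and its log2 difference of 0.43 (SE 0.40) was -0.08 without scramble replicate 1. Rhox9 read 7.94, 9.43 and 9.25 and then 9.00, 9.22 and 8.75, and its log2 difference of 0.12 (SE 0.39) was -0.35 without scramble replicate 1. Scramble replicate 1 was thus the lowest array for both. Rhox8 had -0.37 (SE 0.28), Rhox1 -0.23 (SE 0.19), Rhox11 -0.19 (SE 0.18) and Rhox13 -0.03 (SE 0.25). The Rhox8 difference was -0.14 without mimic replicate 2, -0.20 without scramble replicate 1, -0.58 without scramble replicate 2 and -0.62 without mimic replicate 1, and -0.13 as the mean of its 2 features. Leaving out mimic replicate 2 gave -0.09 for Rhox11, and leaving out mimic replicate 3 gave -0.30.

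Of 27 genes for the TATA-binding protein, its relatives and the factors named for associating with it, 25 were tested, 16 were higher and 9 lower, 0 passed, and the median was 0.08. Taf7, the autosomal counterpart of Taf7l, read 8.65, 8.68 and 9.19 with scramble and 9.18, 8.79 and 9.22 with the mimic. Taf7l2 had 0.40 (SE 0.18) near the dim end, and Taf13 had -0.60 (SE 0.42), which was 0.04 without both replicate 1 arrays. Of 7 genes related to Plac1 or Plac8 by name or sequence, 2 were tested and 0 passed. Oosp2, an oocyte-secreted relative of Plac1, had 0.37 (SE 0.16) near the dim end, and Plac9a had 0.18 (SE 0.23).

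Because Plac1, Rhox6 and Taf7l are X-linked, transcripts that depend on the sex of the pooled embryos were read beside them. Xist, the RNA of the inactive X, read 8.37, 8.96 and 8.75 with scramble and 8.21, 8.92 and 8.80 with the mimic. Its log2 difference was -0.05 (SE 0.29), and its lowest array was replicate 1 in both groups. The Y-linked Eif2s3y read 9.35, 8.66 and 8.74 and then 8.83, 8.61 and 9.32, with equal means of 8.92. The other 4 Y-linked genes measured read at most 7.83, apart from Uty at 8.87 on scramble replicate 1, and differed both ways, with log2 differences of -0.41 for Uty, 0.31 for Usp9y, 0.23 for Kdm5d and -0.14 for Zfy1. Between the groups Plac1 was higher while Rhox6 and Taf7l were lower.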

How the data were processed

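Whole blastocysts were measured on 6 one-colour arrays, 3 per group, with groups and replicate numbers from the sample titles. The deposited table gives log2 signal for 45220 features. How signal was extracted and normalized is not stated in the labels. Array medians were 7.37 to 7.38, so the arrays appear scaled to each other, and the log2 scale was read from the values. No detection flags were used.

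Features were named from the platform annotation (33026 with 1 gene symbol, 0 with several, 12194 with none), and 98.2% of these names were brought up to date with a RefSeq table of GRCm38.p6 by their Entrez identifiers. Features in the lowest 25% by mean (under 7.16) were left out, which kept 24769 features. The brightest feature per gene (17399 genes) was tested with limma 3.58.1 in R 4.3.3 (eBayes with a trend, two-sided, Benjamini-Hochberg threshold 0.05). The fit was also run on simulated data with independent noise for each value. Such data lack shifts shared by many features of an array, so nothing is read from that run here. The number of arrays limits the precision. Whether cultures were independent is not stated, so errors and p-values measure only the spread between these samples.

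The members and lists were chosen with earlier results of these data known. The genes named are the 8 members, the 3 nearest profiles of Hand1 and of Plac1, in each list the 2 tested genes of lowest unadjusted p and every tested Rhox gene. Other genes named (Id1, Id2, Id3, Id4, Tcf12, Tpbpa, Synb, Ly6e, Cts7, Pparg, Cdx2, Taf7, Xist, the Y-linked genes and the tissue markers) were chosen for their role or after their values were seen. The deviations from group means of arrays with 1 number correlated at 0.336, 0.352 and 0.209, each over the 0.1 of the rule used. Scramble replicate 2 with mimic replicate 3 gave 0.196, and scramble replicate 3 with mimic replicate 2 gave 0.129. Unlike numbers thus also passed 0.1, so the rule cannot decide whether the numbers pair the samples. The labels do not say so either. The main fit has no block. The alternatives were the replicate block, 2 other filters, 2 other scalings, the mean of a gene's features, no trend, array weights and arrays left out. Figures were drawn with matplotlib 3.10.9.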

Additional observations from a re-analysis of the deposited data

How the results depend on the processing

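The log2 differences of the 7 genes kept their direction in the 49 values recomputed in 7 settings with arrays left out. Syna, however, was only -0.05 without both replicate 1 arrays. The settings share arrays, and the genes were chosen on the contrast of mimic and scramble, so a kept direction is not separate support for it. The block, the filters and the fit without a trend leave a gene's difference as it is, so their values say nothing on direction. With the replicate block, 1 gene and 1 feature passed the adjusted threshold over the whole table, both Ctsll3 (adjusted p = 0.0138 among genes and 0.0206 among features in limma), and 1260 genes had an unadjusted p under 0.05 against 552 without the block. The block changed no call of the 7 genes. Array weights gave 1208 such genes and a log2 difference of -0.14 for Syna. In the other alternatives 0 genes and 0 features passed. The median of the 7 genes was 0.14 to 0.27 when single arrays were left out and 0.18 to 0.34 in the other settings, the highest when the lowest 50% of features were left out, which removes Syna. Of 28 other genes named by the rule, 5 turned sign when arrays were left out: Plac9a, Rhox5, Rhox9, Rhox13 and Taf13. Among list medians, that of Hand1 partners and regulators turned to 0.01 and that of giant cell genes to -0.02 without both replicate 1 arrays. That of Cited2 partners turned to -0.06 without mimic replicate 3 and that of trophoblast stem cell genes to 0.09 without mimic replicate 1. The causes were not tested. Without detection readings, differences of features near 7.2 cannot be told from background.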
